A study of Mus musculus with 8 samples.

Results

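In bone marrow progenitors that carried either of 2 variants of an enhancer of Zeb2, C/EBPα was called at 930 places on the autosomes where no peak was called in wild-type cells. These regions were chosen by their calls. Merging the peaks of the 6 deposited C/EBPα lists wherever they shared 1 bp or more gave 259446 regions, 249466 of them autosomal, and a region was kept when all 4 DC and DE libraries had a peak in it and the WT libraries had none. The 930 regions were 3.41% of the 27306 autosomal regions called in all 4 DC and DE libraries. The calls in WT were used to choose them, so every comparison of them with WT is a description and carries no test.

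The assay was CUT&RUN: a nuclease is guided to a bound protein by an antibody, and the DNA that it cuts free is sequenced. The cells were sorted from mouse bone marrow as Lin- KIThi-int FLT3+, progenitors that lack mature lineage markers and carry the growth factor receptors KIT and FLT3. The DC and DE cells carried variants, and the WT cells the wild-type form, of an enhancer 165 kb from Zeb2; the labels do not spell out the 2 names, and give no other allele, treatment or age. Each genotype had 2 C/EBPα libraries, 1 in each of 2 batches, and replicates 1 and 2 are batches 1 and 2 throughout. The 2 WT libraries made with a control IgG were not analysed here. Whether replicates are separate animals is not stated, so a p-value here measures only the spread between libraries. Binding cannot check the sort by transcripts. Regions called in all 6 libraries lay within 10 kb of Kit (1 region) and Flt3 (7 regions), and none of the 930 did. Of all autosomal protein-coding genes, 52.3% had a region called in all 6 libraries within 10 kb and 3.56% a gained one. These counts therefore do not check the sort either.

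C/EBPα, encoded by Cebpa, is a basic leucine zipper transcription factor that binds DNA as a dimer, and granulocytes are not formed without it. Zeb2 is a zinc-finger protein that binds E-boxes, mostly as a repressor, and is needed for the plasmacytoid and monocyte lineages. In the series title the enhancer stands as the place where ID2, an inhibitor of E proteins, acts when cells become cDC1, a dendritic cell type that presents antigen to CD8 T cells.

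The lists held 169943 and 50221 peaks in DC replicates 1 and 2, 52474 and 57441 in DE, and 82080 and 56940 in WT. Read totals were not given, so depth is unknown. Strength is therefore given as the summit pileup, or how many fragments cover a peak's summit, which was worked back from each peak's deposited fold and p-value. Scaled pileups were divided by a factor for each library, from the 23480 regions called in all 6 libraries. A library without a peak has no pileup, so for WT the highest pileup that could have gone uncalled was computed. That limit assumed that the local background in WT stood as far above the lowest background of its library as it did in DC and DE.

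Some of the gained regions lay at gene starts, and the sequence of those starts is shown first because C/EBPα binds a short motif that can be looked for there. Of the 903 regions on chromosomes for which windows were at hand, 37 (4.10%) overlapped a window from 250 bases before to 50 after a gene start, taken from RefSeq (GRCm38.p6, the mm10 build). Of all merged regions on the same chromosomes 9657 of 241279 (4.0%) did, and of the other regions called in all 4 DC and DE libraries 18.8%. Neither set was matched to the gained regions in strength. The 37 regions overlapped 40 windows, 28 of them of protein-coding genes. The 250 bases before the start, 5′ to 3′, are printed for the 5 windows that frame this set. These are the window in the best-ranked region that overlaps one (ranks are defined below) and the next 3 of protein-coding genes. The last is that of Ppan, which had the most C/EBP matches (2). Capitals mark TTGCNNAA or TTACNNAA on either strand, where N is any base, both loose forms of the motif of the C/EBP family.
1810008I18Rik: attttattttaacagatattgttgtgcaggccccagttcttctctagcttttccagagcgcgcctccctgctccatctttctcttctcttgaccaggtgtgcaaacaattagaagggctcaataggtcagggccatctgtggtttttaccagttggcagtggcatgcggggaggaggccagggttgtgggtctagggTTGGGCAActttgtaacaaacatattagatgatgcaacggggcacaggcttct
Sstr3: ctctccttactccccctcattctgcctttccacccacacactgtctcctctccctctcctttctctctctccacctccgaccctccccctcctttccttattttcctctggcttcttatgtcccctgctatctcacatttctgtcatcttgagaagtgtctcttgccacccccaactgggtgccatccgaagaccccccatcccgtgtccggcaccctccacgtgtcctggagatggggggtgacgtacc
Stfa1: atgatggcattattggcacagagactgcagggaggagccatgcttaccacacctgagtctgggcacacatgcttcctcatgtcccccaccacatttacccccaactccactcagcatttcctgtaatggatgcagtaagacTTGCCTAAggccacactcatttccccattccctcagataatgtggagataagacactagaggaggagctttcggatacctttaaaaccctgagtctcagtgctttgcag
Nlrp12: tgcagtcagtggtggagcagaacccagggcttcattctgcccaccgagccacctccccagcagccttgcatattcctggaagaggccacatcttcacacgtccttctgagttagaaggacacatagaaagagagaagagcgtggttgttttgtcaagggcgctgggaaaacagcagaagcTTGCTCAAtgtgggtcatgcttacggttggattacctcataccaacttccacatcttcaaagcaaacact
Ppan: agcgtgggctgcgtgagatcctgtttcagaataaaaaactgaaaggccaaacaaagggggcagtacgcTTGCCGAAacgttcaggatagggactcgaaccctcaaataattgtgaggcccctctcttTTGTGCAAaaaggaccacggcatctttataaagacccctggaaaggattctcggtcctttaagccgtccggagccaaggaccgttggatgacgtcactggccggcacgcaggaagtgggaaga
The printed stretches lie at chr7:65802787-65803036 on the plus strand (1810008I18Rik, a gene without a protein), chr15:78544346-78544595 on the minus strand (Sstr3, a somatostatin receptor) and chr16:36276898-36277147 on the plus strand (Stfa1, an inhibitor of cysteine proteases). Nlrp12, an inhibitory sensor of myeloid cells, has its stretch at chr7:3249741-3249990 on the minus strand, and Ppan, a factor of ribosome assembly, at chr9:20887925-20888174 on the plus strand.

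Most of these windows held no C/EBP match. A match to either form was found in 8 of the 40 windows (20.0%), against 18.5% of all 31396 autosomal windows and 17.5% of the 5618 windows overlapped by regions called in all 6 libraries. TTGCGCAA, the palindrome of the first form, was in 0 of the 40 windows, in 0.178% of all windows and in 0.730% of those at regions called in all 6. The motif CAGGTG, an E-box of the kind that Zeb2 binds and one of the forms of CANNTG, was in 15 of the 40 (37.5%), in 20.5% of all windows and in 15.0% of those at regions called in all 6; the 15 include a pair of overlapping windows of Sdf2. The wider form CANNTG was in 65.0% of the 40, in 72.2% of all windows and in 62.3% of those at regions called in all 6. TGTGGT, the RUNX core, was in 11 (27.5%), against 16.7% and 13.8%. The windows also differed in base composition, with a median of 9.5 CpG in the gained set, 7 in all windows and 22 in those at regions called in all 6. Matches were counted over whole windows, also where a region overlapped only part of one. The C/EBP matches at Stx16 and Pyurf lay outside their gained regions. So did the CAGGTG matches at Sstr3, AI463170, Pyurf, Caprin2 and Cfap77 and in both windows of Sdf2. A match is a stretch of letters and not a measured site.

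Stfa1 had summit pileups of 49 and 26 in DC, against 22 and 16 in DE, and up to 5 and 4 fragments could have gone uncalled in WT. At Nlrp12 they were 62 and 18 in DC, against 24 and 18 in DE, with WT limits of 7 and 6. The Sstr3 region, which reached only the outermost 55 bases of its window, had 38 and 17 in DC, against 35 and 22 in DE, with WT limits of 8 and 6. All 3 regions stood above the WT limits in every DC and DE library, also after scaling. Ppan had 15 and 15 in DC, against 12 and 12 in DE, and its WT limits were 16 and 13. Its weakest scaled pileup was 0.57 times the limit of its batch, so that level of binding could have gone uncalled in WT.

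The best-ranked gained region lay inside Thsd4, which encodes a matrix protein that binds fibrillin. Regions are ranked here by their worst place in the 4 DC and DE lists, each ordered by −log10 q. The region, chr9:60216907-60217582, had pileups of 85 and 39 in DC, against 68 and 54 in DE, while the WT limits were 5 and 4. Each scaled pileup was divided by the scaled WT limit of its batch, and the lowest of the 4 ratios, called the lower bound from here on, was 10.4. DC and DE overlapped there (log2 DC minus DE of -0.07, SE 0.33, without batch as a term).

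Thsd4 held 4 of the gained regions within 19.5 kb, the most of any gene. The second, chr9:60225156-60225715, had 58 and 15 fragments in DC and 24 and 14 in DE, with a lower bound of 3.77. The third, chr9:60232337-60232648, had 12 and 12 in DC, against 17 and 8 in DE, with a lower bound of 1.22. The fourth, chr9:60213182-60213449, had 5 and 10 in DC, against 16 and 9 in DE and shared the last place of the 930 with a region in Cdh23, with a lower bound of 0.61. The 4 regions thus ran from the first place to the last.

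Between the first and second of these lay the only region near them that was called in all 6 libraries, chr9:60218298-60218823. Its pileups were 201 and 115 in DC, 131 and 134 in DE, and 47 and 19 in WT. Every DC and DE library was above both WT libraries. With batch as a term, the log2 difference was 2.23 (SE 0.27) for DC minus WT and 2.03 (SE 0.27) for DE minus WT (limma, adjusted p of 1.19e-09 and 4.40e-08 over 23480 regions). Both comparisons share the WT libraries. Here WT binding was measured. The region was chosen after its values were seen and repeats the contrast that the rule used, so these values describe it and are no separate test. The 670 regions called in all 6 libraries within 10 kb of any gained region had median log2 differences of 0.03 for DC and 0.05 for DE.

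The other leading regions were spread over genes of many kinds. Of the first 20 in rank, 11 lay inside genes and 9 between them, 4 of those over 50 kb from the nearest gene. A region between genes, 139 kb from Pcdh15 (a cadherin of the inner ear), had 175 and 41 fragments in DC and 54 and 36 in DE, with WT limits of 5 and 4. Inside Il6st, which encodes gp130, the signalling chain shared by receptors of the IL-6 family, DC had 60 and 21 and DE 31 and 22, with the same limits. Nrp1, a co-receptor for semaphorins and VEGF, held a region with 58 and 33 in DC, against 37 and 30 in DE, and its WT limits were 6 and 5. In these 3 regions the scaled pileup of each DC library exceeded that of the DE library of its batch, and every DC and DE library exceeded the WT limits.

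A region 110 kb from Cebpb, which encodes the family member C/EBPβ, had 62 and 28 fragments in DC and 32 and 32 in DE, with WT limits of 6 and 5. Regions inside U2af1, a subunit of the factor that finds the 3′ splice site, and Cyp2c23, a fatty acid epoxygenase, had larger scaled pileups in DE than in DC in both batches. U2af1 had 78 and 25 in DC, against 69 and 37 in DE, and Cyp2c23 had 53 and 22 in DC, against 66 and 41 in DE. Another gained region inside U2af1, chr17:31648322-31648724 (rank 33), went the other way in both batches. Its scaled pileups were 66.1 and 35.3 in DC, against 41.8 and 32.8 in DE. The remaining leading regions had Stpg2, Hsdl2, Lmntd1, Trpm3, Grhl1, Gk5, Pabpc1, Osbpl10, Ncald, Fut2 and Kcnn3 as their nearest genes. Among the 20, the lower bound was between 3.36 and 10.4. With the WT background taken from the DC and DE libraries of the same batch, its lowest value was 2.81.

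A pair of leading regions lay beside Sfi1, which encodes a centrin-binding protein of centrioles. The region chr11:3126470-3126759 had the highest pileups of the 930 in all 4 libraries, at 202 and 66 in DC, against 115 and 90 in DE. Its local background was 5.55 and 6.04 times the lowest of the library in DC, and 8.11 and 6.42 times in DE. In WT up to 17 and 14 fragments could have gone uncalled there. The other region, chr11:3128936-3129224, had 111 and 39 fragments in DC and 81 and 60 in DE over a background 7.19 to 7.86 times the lowest of its library. A background under 5 times the lowest of its library in all 4 libraries was found for 831 of the 930 regions and for 16 of the 20, and neither Sfi1 region was among them.

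**Figure D1:**
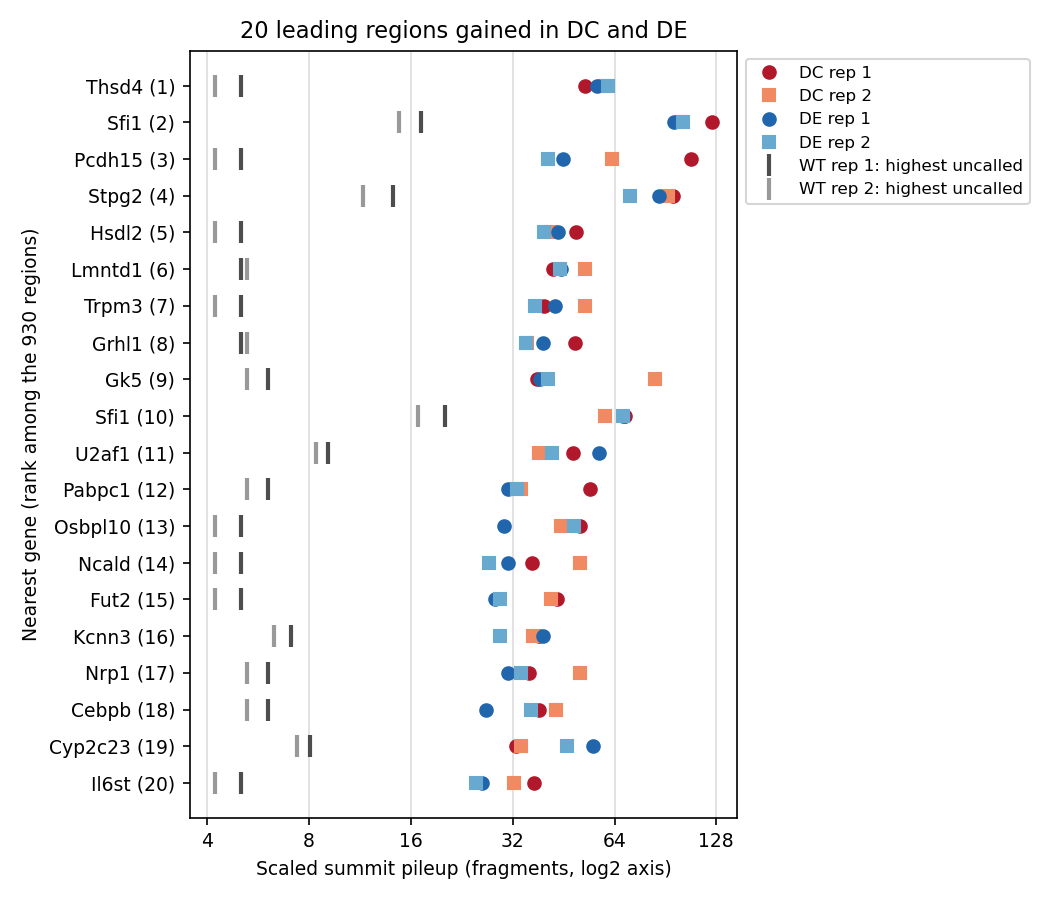
Scaled summit pileup (fragments, log2 axis) of the 20 leading gained regions, named by their nearest gene and rank, in the 2 DC libraries (red and orange), the 2 DE libraries (dark and light blue), and as vertical ticks the highest pileup that could have gone uncalled in the WT libraries. All DC and DE points lie to the right of the WT limits drawn for their region, by at least 3.36 times within a batch. With the WT background of the same batch the least is 2.81 times.

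As a whole the 930 regions had lower pileups than regions shared by all 6 libraries. Their median pileup was 25 and 11 in DC replicates 1 and 2 and 18 and 13 in DE, with ranges of 5 to 202 and 4 to 66 in DC and of 7 to 115 and 4 to 90 in DE. The scaled medians were 15.4 and 16.9 in DC, against 15.0 and 14.7 in DE. At the 23028 autosomal regions called in all 6 libraries they were 35.8 and 36.8 in DC, 35.1 and 36.2 in DE, and 34.3 and 36.8 in WT. Over all peaks of a list, called in 1 library or more, the median unscaled pileup was 8 and 12 in DC and 20 and 13 in DE, so only in DC replicate 1 was the median of the gained regions more than 1.5 times that of its list. The fold at the summit over local background had a median of 10.9 and 7.38 in DC, against 6.31 and 7.81 in DE at the gained regions. Scaled levels of the 4 libraries lay close together, and below those of regions that WT shared.

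**Figure D2:**
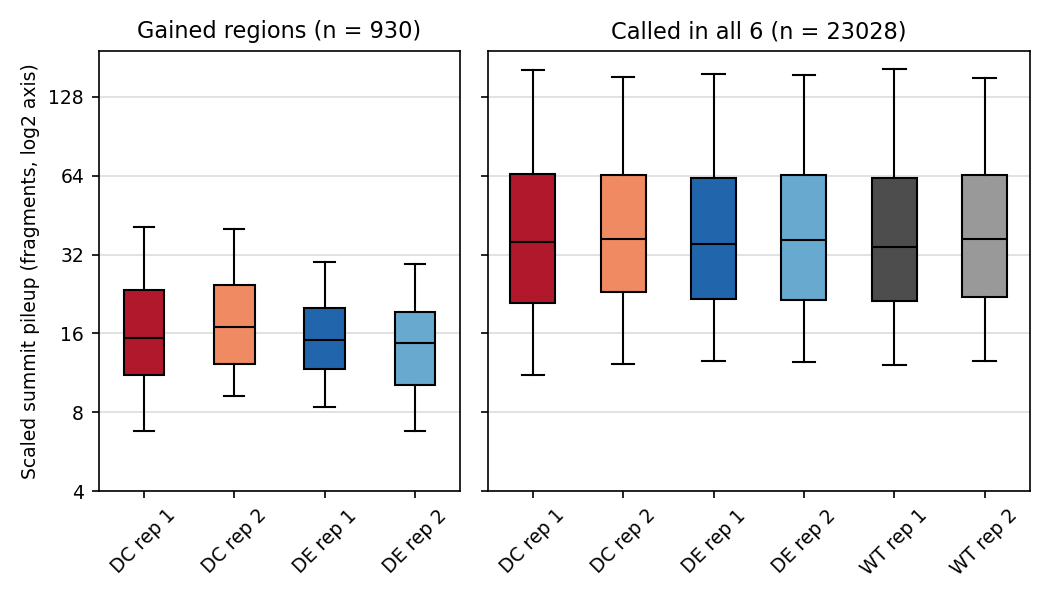
Scaled summit pileup (fragments, log2 axis) in each library, at the 930 gained regions (left) and at 23028 autosomal regions called in all 6 libraries (right). Boxes span the quartiles with the median as a line, and whiskers reach the 5th and 95th percentiles; the gained regions have medians of 14.7 to 16.9, and WT has no box on the left because it has no peak there.

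How far binding in WT could have reached was computed for each region. The WT limit had a median of 6 fragments in replicate 1 and 5 in replicate 2, and ranged up to 27 and 21. In 851 of the 930 regions (91.5%) all 4 scaled pileups exceeded the WT limit of their batch, in 399 (42.9%) by more than 2 times and in 124 (13.3%) by more than 3 times. With the WT background taken from the DC and DE libraries of the same batch, 809, 320 and 102 regions did so. The first limit carries background over between batches, where it varied more. At summits shared by a pair of libraries, the ratio of their backgrounds was compared with its median for that pair. It lay within 25% of it at 88.5% to 95.1% of summits within a batch and at 20.1% to 24.5% across batches. For the other 79 regions at least 1 of the 4 pileups could have gone uncalled in WT.

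Gained regions made up a larger share of weak than of strong regions. Regions called in all 4 DC and DE libraries were ordered by the lowest of their 4 scaled pileups, and in the lowest 10% 353 of 2652 (13.3%) had no WT call. Between the 50th and 75th percentile 43 of 6912 (0.622%) had none, and in the highest 10% 1 of 2739 (0.0365%), the stronger Sfi1 region. The same calls gave 279 regions in both WT and both DC libraries and no DE library, and 129 in both WT and both DE and no DC library. Both WT libraries and no DC or DE library called 531. A further 3348 autosomal regions were called in all 4 DC and DE libraries and in 1 WT library, 1176 of them in replicate 1 and 2172 in replicate 2.

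**Figure D3:**
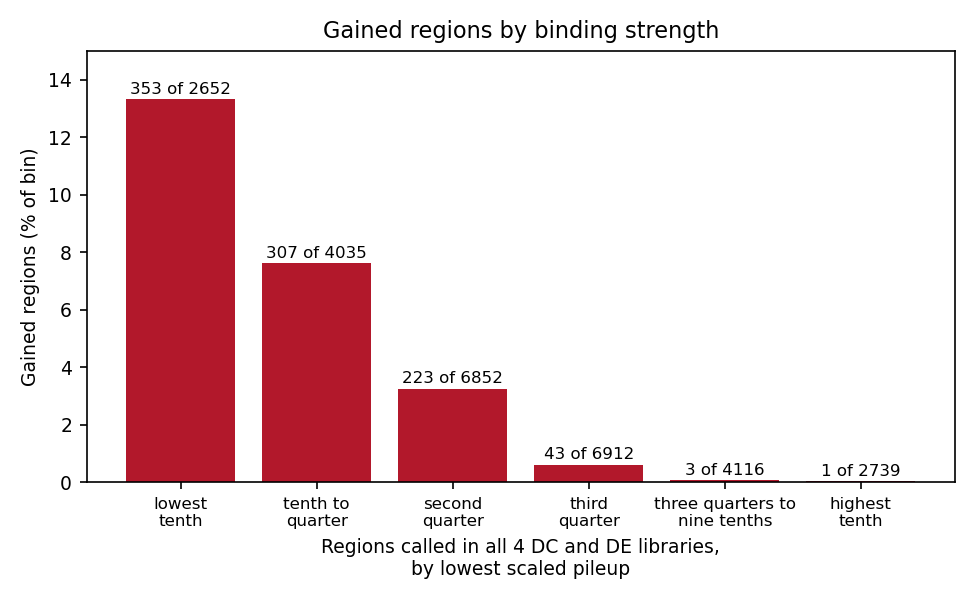
Share of gained regions (percent, linear axis) among autosomal regions called in all 4 DC and DE libraries, binned by the lowest of the 4 scaled pileups. Labels give gained regions of all regions in the bin; the share is 13.3% in the lowest 10% and 0.0365% in the highest.

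At the edge of the rule stood regions that few fragments put inside or outside it. The gained regions with the weakest calls lay in Thsd4 (the fourth above), in Cdh23, another cadherin of the inner ear, and 49.1 kb from Man1a2, a mannosidase of the Golgi. Cdh23 had 5 and 4 fragments in DC and 14 and 9 in DE, and the Man1a2 region had 20 and 6 in DC, against 27 and 14 in DE. Just outside the rule, regions near Creg2 (9.59 kb), Fyn (95.4 kb) and Trib2 (138 kb) were called in WT replicate 2 with 5 fragments and a −log10 q of 1.10. The Creg2 region had 24 and 15 fragments in DC and 21 and 13 in DE, more than either Cdh23 or the fourth Thsd4 region.

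Gained regions lay near gene ends about as often as merged regions of any kind, and less often than the other regions called in all 4 DC and DE libraries; neither difference was tested. Within 1 kb of the end of a protein-coding gene were 84 of the 930 (9.03%), inside genes 439 (47.2%) and between genes 407 (43.8%). Of the 26376 other autosomal regions called in all 4 DC and DE libraries, 24.7% were near a gene end, 38.7% inside and 36.6% between genes. These others were not matched to the gained regions in strength, so the part of strength in the difference was not tested. The 531 regions of WT alone had 17.1%, 42.7% and 40.1%, and all 249466 merged regions 9.13%, 43.3% and 47.6%. The median distance to a gene end was 17.7 kb for gained regions and 8.78 kb for the others called in all 4. The table used gives gene ends only, so exons and introns were not told apart. The lower share rests on WT replicate 2: without it as a bar, 3102 regions met the rule and 22.7% of them lay near a gene end.

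**Figure D4:**
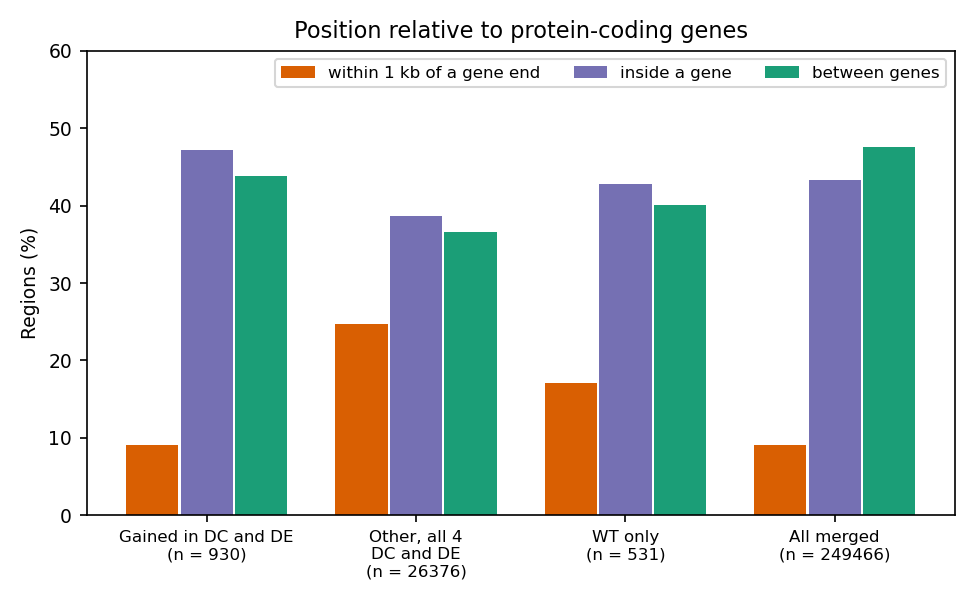
Share of regions (percent) by position, at a gene end (1 kb or less away), inside a protein-coding gene or between genes, for the 930 gained regions, the other autosomal regions called in all 4 DC and DE libraries, those of WT alone, and all merged autosomal regions. Gained regions have 9.03% near a gene end, and the other regions called in all 4, not matched in strength, have 24.7%.

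Few gained regions had another within 10 kb. The median width was 268 bp, against 417 bp for other regions called in all 4 DC and DE libraries, 196 bp for regions of WT alone and 117 bp for all merged regions. The 4 summits lay within 100 bp of each other in 732 gained regions (78.7%) and in 80.4% of the others. The nearest other gained region was at a median of 481 kb, and 46 had one within 10 kb. This spacing was not compared with that of any other set of as many regions, so it shows neither clustering nor its absence. Every autosome held some, from 2.43% of its regions called in all 4 on chromosome 7 to 4.64% on chromosome 6.

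Many gained regions had WT binding close by. A region called in at least 1 WT library lay at a median of 3.40 kb, within 1 kb for 235 (25.3%) and within 10 kb for 736. These distances are not given here for other regions, so whether they are particular to the gained ones was not tested. Of regions called in all 6 libraries, 670 lay within 10 kb of a gained region. Among them 33 (4.93%) were higher and 2 (0.299%) lower in DC than in WT, against 3.16% and 1.21% of all 23480 regions (limma with batch as a term, adjusted p under 0.05). In DE 10 (1.49%) were higher and 0 lower than in WT, against 1.14% and 0.294%. The median log2 difference of the 670 was 0.03 for DC and 0.05 for DE, and the 2 comparisons share WT.

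By genes, the gained regions were thinly spread. Within 10 kb of a gained region lay 736 of 20665 autosomal protein-coding genes (3.56%). After Thsd4, 3 genes had 3 each: Adipor2, a receptor of adiponectin, Atp2b2, a calcium pump of the plasma membrane, and Nrg1, a ligand of ErbB receptors. The strongest of each had 47 and 13 fragments in DC and 17 and 16 in DE at Adipor2, 25 and 13 in DC, against 18 and 13 in DE at Atp2b2, and 41 and 11 in DC, against 19 and 15 in DE at Nrg1. A further 46 genes had 2 each, of which 1700025G04Rik stands first by name.

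On the list of stem and progenitor genes, 6 of 22 genes (27.3%) had a gained region within 10 kb, and 20 of the 22 had a region called in all 6 libraries. Counted by region, 6 of the 111 regions called in all 4 DC and DE libraries near these genes were gained (5.41%), beside 3.41% of all such autosomal regions. Ikzf1, the lymphoid and progenitor factor Ikaros, had the best-ranked of them, chr11:11716546-11717002, with 51 and 12 fragments in DC and 41 and 27 in DE and WT limits of 5 and 4. Hoxa9, a homeobox gene of progenitors and leukaemia, had 44 and 16 in DC, against 23 and 18 in DE, with WT limits of 7 and 6.

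The regions in Ikzf1 and Hoxa9 exceeded the WT limits in all 4 libraries, with lower bounds of 4.38 and 2.72. Etv6, a repressor of the ETS family, had 56 and 28 in DC, against 12 and 25 in DE, and its lower bound of 0.90 became 1.99 with the WT background of the same batch. Runx1, the core factor of blood stem cell emergence, had 28 and 9 in DC, against 14 and 8 in DE, with a lower bound of 1.44. Lmo2, a bridging protein of the stem cell complex, and Mecom, a zinc-finger factor of stem cells, followed in rank. Mecom had 11 and 13 in DC, against 19 and 14 in DE, and its lower bound of 0.42 became 0.84 with that background.

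Among neutrophil and monocyte genes, the targets C/EBPα is best known for, 2 had gained regions. Ctsg (cathepsin G) and Cxcr2, a chemokine receptor of neutrophils, had one within 10 kb among 32 genes (6.25%), while 29 of the 32 had a region called in all 6 libraries. Cxcr2 had 33 and 12 fragments in DC and 18 and 9 in DE, and its lower bound of 1.62 became 0.88 with the WT background of the same batch. Ctsg had 22 and 8 in DC, against 12 and 17 in DE, and with WT limits of 11 and 9 its lower bound was 0.90. Gained regions were 2 of the 97 regions called in all 4 DC and DE libraries near these genes (2.06%).

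Among dendritic cell genes, 2 of 16 cDC1 genes had one, Wdfy4, which cross-presentation needs, and Snx22, a sorting nexin. Wdfy4 had 54 and 10 fragments in DC and 18 and 12 in DE, and its lower bound of 2.98 became 0.83 with the WT background of the same batch. Clec4a4 was the 1 of 15 cDC2 genes and Klk1 the 1 of 14 pDC genes. With that background the lower bound of 1.49 at Snx22 became 0.74, and that of 1.22 at Clec4a4 became 0.97. Counted by region, 2 of 47 called in all 4 DC and DE libraries near cDC1 genes were gained (4.26%). Near cDC2 genes it was 1 of 33 (3.03%) and near pDC genes 1 of 34 (2.94%), beside 3.41% of all such autosomal regions. Klk1, with 8 and 7 in DC, against 12 and 11 in DE, had a lower bound of 0.98.

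In the other lists Dntt, the nucleotide-adding enzyme of antigen receptor joining, was the 1 of 15 B lymphoid genes. Epor and Gp1bb were 2 of 13 erythroid and megakaryocyte genes. Near the genes of that list 2 of 22 regions called in all 4 DC and DE libraries were gained (9.09%), beside 3.41% of all such autosomal regions. The lower bound was 1.94 at Epor and 1.01 at Gp1bb. With the WT background of the same batch it was 1.55 at Epor and 1.80 at Gp1bb. B2m was the 1 of 13 housekeeping genes. No gene of the lists for T and NK cells (15), mast cells, basophils and eosinophils (10), other tissues (20) or the C/EBP family (6) had a gained region within 10 kb. Beside these counts, 3.56% of all autosomal genes lay near a gained region. In gene families, olfactory receptors had 6 of 1104, zinc-finger genes named Zfp 12 of 391, solute carriers 6 of 376 and genes named Rpl or Rps 4 of 94, a match by name that takes in Rpl7l1 and Rps19bp1.

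At the Zeb2 locus, from 300 kb beyond the gene end on the enhancer's side to 50 kb beyond the other end, 1 gained region was found. It lay at chr2:44952828-44953376, 30.1 kb beyond the end of Zeb2 that faces away from the enhancer and 25.1 kb from Gtdc1, a glycosyltransferase-like gene. Its pileups were 43 and 13 in DC, against 45 and 20 in DE, with WT limits of 6 and 5 and a lower bound of 3.80. DC and DE overlapped there (log2 DC minus DE of -0.33, SE 0.42, without batch as a term). Within each batch DE was higher (-0.49 in batch 1 and -0.17 in batch 2). No gained region lay at the enhancer.

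DC and DE could be compared by test, since the rule asked for a peak in both. Without batch as a term, limma called 0 of the 930 regions and 0% of 27857 regions called in all 4 libraries at an adjusted p of 0.05, while 79 and 896 had an unadjusted p under 0.05. With batch as a term, which the labels supply, 5 gained regions were higher in DC and 0 lower. Over all regions 27 (0.0969%) were higher and 15 (0.0538%) lower. The median log2 DC minus DE was 0.22 in the gained regions and 0.01 in all regions tested, and that of the gained regions was 0.15 without DC replicate 2 and 0.14 without DE replicate 2.

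Within batches, the median log2 DC minus DE of the gained regions was 0.09 in batch 1 and 0.32 in batch 2. In both batches DC was higher in 405 regions, DE was higher in 157, and 368 did not go the same way. Other regions called in all 4 whose lowest scaled pileup was under 14.1, the upper quartile of the gained regions, had a median of -0.03 (n = 6633). Those on the autosomes all had a WT call, so they differ from the gained regions by the rule as well as by strength. Across the 930 regions the differences of batch 1 and batch 2 correlated with r of 0.16, which describes regions that share libraries. Scaling by background in place of shared regions moved the median of all regions to 0.30 and that of gained regions to 0.51, and no region was then called with or without the batch term.

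The 5 regions called with batch as a term were each higher in DC in both batches, and the SEs given are from that fit. Inside Ubtd1, a ubiquitin-like protein, the pileups were 94 and 29 in DC, against 36 and 8 in DE (log2 DC minus DE of 1.55, SE 0.35, limma adjusted p = 0.0128). Beside 1110002E22Rik they were 107 and 33 in DC, against 25 and 19 in DE (1.41, SE 0.33, limma adjusted p = 0.0215). The region 78.3 kb from Commd10, a COMM domain protein, had 110 and 43 in DC, against 31 and 26 in DE (1.25, SE 0.30, limma adjusted p = 0.0367). All 3 had DC pileups above those of DE in each batch, and their WT limits were between 4 and 8.

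Inside Sh3bp5, which encodes a protein that binds the kinase BTK, DC had 54 and 33 and DE 11 and 19 (1.47, SE 0.37, limma adjusted p = 0.0396). Inside Gpr137c DC had 53 and 20 and DE 13 and 8 (1.58, SE 0.39, limma adjusted p = 0.0419). Without the batch term these 5 had a limma adjusted p of 0.999 each.

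**Figure D5:**
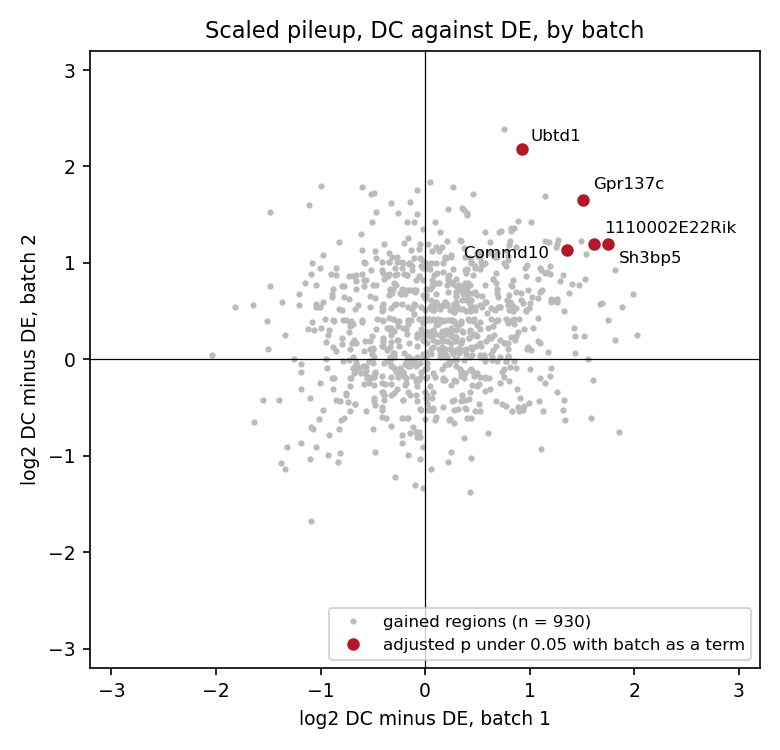
Log2 difference in scaled summit pileup, DC minus DE, in batch 1 (horizontal) and batch 2 (vertical) for the 930 gained regions (grey) and the 5 with an adjusted p under 0.05 in limma with batch as a term (red). The red points are at 0.92 or more in both batches, and 405 regions are above 0 in both.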

How the data were processed

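C/EBPα CUT&RUN peak lists of 6 libraries (2 each of DC, DE and WT) were analysed; the 2 IgG libraries were not analysed here. The submitters' processing notes name MACS2 2.2.9.1, Bowtie2, Trimmomatic, HOMER and SAMtools, and build mm10, but no role for each. In the deposited lists the authors give, for each peak, a fold over local background (a ratio), a −log10 p-value, a −log10 q-value (threshold 0.1) and a score, which is not used further. The lists give no read counts, so depth and its precision are unknown. The deposited merged table gives positions of 259446 regions and no measurement.

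Peaks were merged at 1 bp of overlap with Python 3.11.15 and pandas 2.3.3. The summit pileup k and local background were recovered by solving the fold, (k + 1) over (background + 1), and the Poisson p-value for a whole k, allowing 5% of a whole step as error (scipy 1.17.1). At least 99.986% of each list was solved; a second k also met the tolerance for 5.66% of DC replicate 2 and 1.11% of DE replicate 2. Pileups were scaled by the median log2 deviation over the 23480 regions called in all 6 libraries, and compared as log2(scaled pileup + 1) in limma 3.58.1 under R 4.3.3 (two-sided, variance trend, adjusted by Benjamini-Hochberg over all regions, threshold 0.05). Replicate numbers are batches in the labels and so pair the libraries; their deviations correlated across regions with r of 0.39 for DC and DE, 0.55 for DC and WT and 0.42 for DE and WT. Scripts were tested on simulated data. The limit in WT is the largest pileup whose p-value would stay under the weakest called in that list. Promoter windows were not at hand for chromosome 18. Genes, promoters and distances came from RefSeq tables of GRCm38.p6 with 21887 protein-coding genes.

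The regions, gene lists and tests were chosen with earlier results of these data known. Regions named are the 20 best by worst rank, those of the 5 genes with the most within 10 kb, up to 4 per blood gene list (Lmo2 and Mecom were added after their values were seen), those at Zeb2, those called in DC minus DE, and 3 on either side of the calling rule; promoter examples and the shared Thsd4 region were chosen after their values were seen. Alternatives changed the overlap, threshold, scaling, WT background, windows and libraries.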

Additional observations from a re-analysis of the deposited data

Results flagged for a closer look

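On the X chromosome, which the rule left out, 21 regions had the same pattern of calls. On the Y chromosome no region had it, but 27 regions were called in both DE libraries and in no DC or WT library. The lists held 24 and 13 Y peaks in DC replicates 1 and 2, 82 and 65 in DE, and 12 and 20 in WT. Whether the sex of the animals differed between the genotypes is not given in the labels, and its part in the autosomal results was not tested.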

How the results depend on the processing

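The number of gained regions was 930 and lay between 831 and 1109 when the overlap, the q threshold or the background limit was changed; a like count need not mean like regions, since the 1109 found when peaks had to cover 50% of the region held 406 of the 930. It depended on the libraries: leaving out each in turn gave 990 to 3102, the most without WT replicate 2, and without each of DC replicate 2 (1771), DE replicate 1 (1994) and WT replicate 1 (2106) it also moved by over 1.5 times. These sets hold the 930, as fewer calls were asked for. The share near a gene end was 8.92% to 22.7% in these sets, the share inside genes 41.7% to 47.9% and the share between genes 35.6% to 44.7%. The share inside genes was 45.7% under that cover rule, where 8 of the 20 leading regions stayed, and 48.9% with a background under 5 times the lowest of its library. Lower bounds above 2 were found for 624 regions with scaling by background and for 265 with the highest of the 4 background ratios, against 399. With the replicate block, 5 regions were higher in DC than in DE, against 0 without it; no other alternative called a gained region. The same-batch WT background was chosen after the data were seen. Without read totals, a missing WT call limits binding only to the pileups given.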
